A study of Mus musculus with 288 samples.

Results

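The urea cycle transcripts were followed in mouse liver across age and feeding schedule, using 7 genes: Nags, Cps1, Slc25a15, Otc, Ass1, Asl and Arg1. They were chosen by name, as the rows of the gene count tables whose gene symbol is one of these, and all 7 were found among 21869 genes in each of the 288 libraries. The livers came from individually housed wild-type male C57BL/6J mice that had a running wheel and carried no engineered allele. One group per age fed ad libitum (AL), and 5 groups per age received caloric restriction (CR), set at 70% of the AL amount when it began. By the study's text the CR ration was not raised when AL mice ate more later in life, so at 19 months it was a smaller share of AL intake than at 6 months. CR-night-2h and CR-day-2h mice received the ration at the start of the dark or the light phase and ate it as a single meal within 2 h. CR-night-12h and CR-day-12h mice received a 300-mg pellet every 90 min over 12 h of the dark or the light phase, and CR-spread mice one such pellet every 160 min around the clock. Mice were 6 or 19 months old, which gives 12 groups. In each group 2 livers, lettered A and B and each from a separate mouse, were taken at every one of 12 time points, every 4 h from hour 0 to hour 44 (24 livers per group). The sample labels give a light cycle of 12 h light and 12 h dark, whereas the file headers and the study's text place the sampling itself in constant darkness. Hours are used here as labelled. Runs of 5 values for the CR groups are given in one order, CR-spread first, then the day groups and then the night groups, in both cases with 12h before 2h.

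The urea cycle turns ammonia from amino acid breakdown into urea, and its full set of enzymes is found in hepatocytes, most strongly those near the portal vein. NAGS makes N-acetylglutamate, the activator that CPS1 needs to form carbamoyl phosphate from ammonia and bicarbonate in the mitochondrion. The carrier encoded by Slc25a15 brings ornithine into the mitochondrion, where OTC joins it to carbamoyl phosphate to give citrulline. In the cytosol ASS1 joins citrulline to aspartate, ASL splits the product into arginine and fumarate, and ARG1 splits arginine into urea and ornithine. Transcript levels of these enzymes are known to follow protein intake, glucagon and glucocorticoids.

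In the mouse genome (GRCm38, GENCODE M21, in which the identifier and version of each member matches that of the files), the members lie on 7 chromosomes. Cps1 lies on chr1:67123026-67231259 (+), Ass1 on chr2:31470207-31520672 (+), Asl on chr5:130011258-130029247 (-), Slc25a15 on chr8:22375551-22398597 (-), Arg1 on chr10:24915221-24927484 (-), Nags on chr11:102145513-102149477 (+) and Otc on chrX:10252305-10321024 (+). RefSeq promoter windows (GRCm38.p6), from 250 bases before to 50 after the annotated start, were at hand for 4 of the 7 members. Otc and Ass1 are shown because under CR at 6 months with TMM scaling they lay on opposite sides of AL. Capitals mark matches to the C/EBP core TTNNGNAA and to the GC box (GGGCGG). The CCAAT box (spelled as named), the CRE half-site (TGACG) and the TATA box (TATAAA) were searched as well, each motif on both strands. These are the windows chrX:10252055-10252354 (+) for Otc and chr2:31470020-31470319 (+) for Ass1:
Otc: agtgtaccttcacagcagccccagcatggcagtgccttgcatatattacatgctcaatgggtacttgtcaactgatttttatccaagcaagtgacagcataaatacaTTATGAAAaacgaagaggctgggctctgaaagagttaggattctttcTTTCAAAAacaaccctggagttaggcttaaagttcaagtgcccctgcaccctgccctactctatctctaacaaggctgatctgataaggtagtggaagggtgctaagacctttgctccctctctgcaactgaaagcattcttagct
Ass1: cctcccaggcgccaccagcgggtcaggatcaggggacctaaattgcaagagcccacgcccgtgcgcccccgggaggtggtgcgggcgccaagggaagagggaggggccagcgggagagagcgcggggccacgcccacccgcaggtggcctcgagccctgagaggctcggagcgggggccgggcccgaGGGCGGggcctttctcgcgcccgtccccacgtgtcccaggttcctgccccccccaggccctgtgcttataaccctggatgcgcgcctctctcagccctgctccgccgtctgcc
The Otc window had a GC content of 44.3%, 2 matches to the C/EBP core and none to the GC box. The Ass1 window had a GC content of 74%, 1 match to the GC box and none to the C/EBP core. Neither held any of the other 3 motifs. Among 32851 mouse promoter windows of 300 bases, 40.7% held the C/EBP core, 35.7% the GC box, 37.4% the CCAAT box, 20.8% the CRE half-site and 13.6% the TATA box, so that these matches are a description of the windows only.

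Library totals ranged from 2.80e+06 to 1.87e+07 reads assigned to genes (median 7.13e+06), and the lowest count of any member in any library was 89 (Nags). The letters differed in depth in some groups. The medians of letters A and B were 7.76e+06 and 1.59e+07 in AL at 6 months, and at 19 months 1.11e+07 and 7.96e+06 in AL, 9.65e+06 and 6.63e+06 in CR-spread, and 9.55e+06 and 6.03e+06 in CR-day-2h. Levels are given as CPM, the counts of a gene relative to the library total, scaled by the trimmed mean of M values (TMM), which assumes that most genes do not differ between libraries. The defining hepatocyte transcripts were abundant in every group, and the sum of 8 of them (Alb, Ttr and others) had group medians of 114000 to 139000 CPM under CR against 96100 (6 months) and 88900 (19 months) under AL. Alb made up most of that sum, with means at 19 months of 66700 CPM in AL and 110000 CPM in CR-night-2h. Scaling to the sum, called hepatocyte scaling below, thus follows Alb above all. Summed over 6 Kupffer cell and macrophage markers, the group medians were 187 CPM in AL at 19 months and 65.6 to 118 CPM in the other 11 groups. These are whole livers, in which fewer cells of a type and less RNA per cell cannot be told apart, and sequencing dates were not given, so that a run shared by an age or a feeding group cannot be told apart from it.

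Between genes, levels were compared per length, in the deposited RPKM, which is scaled to gene length and library size. Over the 12 groups the median RPKM ran from 524 to 954 for Ass1, from 273 to 747 for Cps1, from 249 to 357 for Arg1, from 48.3 to 82.6 for Otc, from 35.9 to 78.5 for Asl, from 24.2 to 39.7 for Slc25a15 and from 7.22 to 12.1 for Nags. By median RPKM Ass1 was the highest and Nags, which makes the activator, the lowest in every group. Cps1 came after Ass1 in every group but AL at 19 months, where it stood at 273 RPKM and Arg1 at 274 RPKM. Across groups the highest median CPM was 2.98 times the lowest for Cps1, 2.56 times for Asl, 2.13 times for Ass1, 1.92 times for Nags, 1.84 times for Slc25a15, 1.47 times for Arg1 and 1.43 times for Otc. By median CPM AL at 19 months was the lowest of the 12 groups for 6 of the 7 members. The exception was Otc, which was lowest in CR-day-2h at 6 months (median 285 CPM). It was highest in CR-night-12h at 19 months (408 CPM), next to AL at 6 months (405 CPM). This depended on the scaling. By median RPKM CR-day-2h at 19 months was the lowest group for Arg1 (249, AL at 19 months 274), Nags (7.22, AL 7.35) and Slc25a15 (24.2, AL 24.3). Otc was highest by median RPKM in AL at 6 months (82.6, CR-night-12h at 19 months 65.8) and lowest in CR-night-2h at 6 months (48.3).

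**Figure D1:**
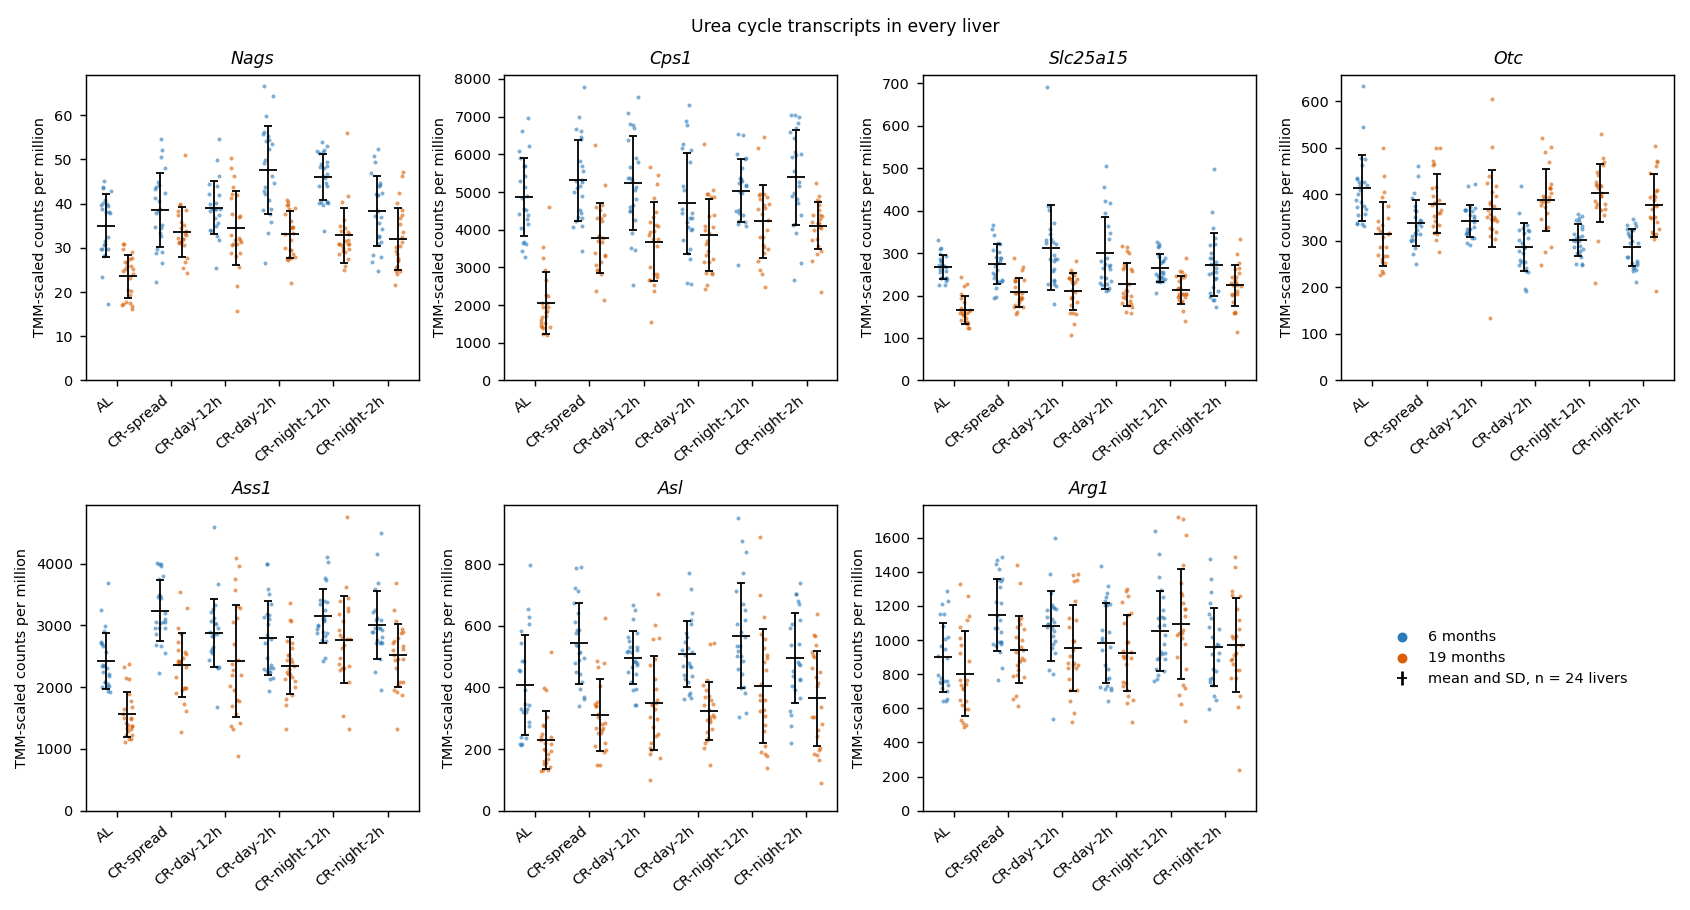
TMM-scaled CPM (vertical axes, from 0) of the 7 urea cycle genes in each liver, by feeding condition (horizontal axes) and age (colour). Points are single livers taken at 12 time points; black bars are the mean and SD of 24 livers. Cps1 in AL at 19 months has a median of 1820, the lowest of the 12 groups.

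When the 12 groups were ordered by median CPM, most gaps between neighbours were smaller than the spread of single livers. This describes the steps of the order and is no test of a difference between groups. For Otc, Asl and Arg1 the gap between neighbouring medians was smaller than their pooled SD at all 11 steps. For Cps1, Ass1 and Slc25a15 it was smaller at 10 of 11 steps, and the one larger step was that from AL at 19 months to the next group. For Nags the one larger step of 11 lay between CR-day-12h and CR-night-12h at 6 months.

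The first comparison asked how the members differed between old and young mice under unrestricted feeding. Cps1, the entry enzyme of the cycle, ran from 3270 to 6960 CPM in AL at 6 months (median 4690) and from 1210 to 4610 CPM at 19 months (median 1820). All 24 old livers lay below the young median, and 22 of them lay below the lowest young liver. Cps1 fell by 1.24 ± 0.10 (log2 fold change ± SE, 24 livers per group), to 0.42 of its young level, with an adjusted p of 4.4e-24 (edgeR quasi-likelihood test with Benjamini-Hochberg adjustment over 12228 genes). A gene was called when the adjusted p was below 0.05 and the fold at least 1.5.

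The mitochondrial ornithine carrier gene Slc25a15 ran from 224 to 331 CPM (median 268) in young and from 123 to 244 CPM (median 159) in old AL livers. Here too 22 old livers lay below the lowest young one, and Slc25a15 fell by 0.69 ± 0.09 (adjusted p 1.2e-12, edgeR). Ass1 ran from 1920 to 3690 CPM (median 2320) in young and from 1120 to 2370 CPM (median 1450) in old livers. The groups overlapped in part, with 20 old livers below the lowest young one, and Ass1 fell by 0.64 ± 0.09 (adjusted p 6.8e-10, edgeR). Asl ran from 214 to 797 CPM (median 344) in young and from 130 to 514 CPM (median 209) in old livers. Its groups overlapped more, with 12 old livers below the lowest young one, and it fell by 0.83 ± 0.15 (adjusted p 3.1e-07, edgeR).

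The other 3 members were not called. Nags ran from 17.3 to 45 CPM (median 37.9) in young and from 16.1 to 30.9 CPM (median 24.9) in old livers. Its log2 fold change of -0.57 ± 0.08 passed the adjusted p (3.4e-10, edgeR) and missed the fold. Otc ran from 331 to 632 CPM (median 405) in young and from 227 to 498 CPM (median 311) in old livers, with a log2 fold change of -0.39 ± 0.07 (adjusted p 8.7e-07, edgeR). Arg1, which releases urea, ran from 640 to 1290 CPM (median 845) in young and from 490 to 1330 CPM (median 739) in old livers. Its ranges overlapped over most of their length, and its log2 fold change of -0.16 ± 0.10 did not pass the test (adjusted p 0.19, edgeR).

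In all, 4 of 7 members fell with age under AL and none rose, against 4.47% of all genes tested called lower and 10.8% called higher. The median log2 fold change of the members was -0.64, and that of all genes -0.01. The members' median lay 0.62 to 0.65 below that of all genes under each of 5 scalings (TMM, size factors of DESeq2, library totals, the sum of the 8 hepatocyte transcripts, and the deposited RPKM), and Cps1 and Asl were called under each. Ass1 missed the fold when libraries were scaled to their totals (-0.57) or to hepatocyte transcripts (-0.52), as did Slc25a15 in the latter (-0.57).

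Markers of other cell types moved in the same comparison. Of the 6 Kupffer cell and macrophage markers 4 were called higher in old AL livers, as were both T cell markers tested, the 3 B cell markers and 4 of 5 stellate cell markers. The T and B cell markers had low levels, with means of 0.618 to 1.03 CPM in young and 1.26 to 1.98 CPM in old AL livers. None of them was high enough to be tested on RPKM. Of 6 markers of periportal hepatocytes, the cells in which the cycle is strongest, 4 were called lower and 1 higher. Among 8 markers of pericentral hepatocytes 2 were called lower and none higher. The periportal markers Hal, Sds and Gls2 also belong to the gene lists around the cycle described below. Of the 8 general hepatocyte markers 1 was called lower. Their part in the fall of the urea cycle transcripts was not tested.

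Under CR the count of members called with age depended on the scaling. With TMM Asl fell in CR-spread (-0.81 ± 0.15, adjusted p 1.8e-06, edgeR) and in CR-day-2h (-0.65 ± 0.15, adjusted p 7.6e-05, edgeR), and it was the only member called in any CR group with TMM. That is 1 of 7 members in CR-spread (all genes lower, 2.98%) and 1 of 7 in CR-day-2h (3.52%). With TMM no member was called in CR-day-12h, CR-night-12h or CR-night-2h, where 1.46%, 3.18% and 2.4% of all genes were called lower, and DESeq2 called none in these either. At an unadjusted p below 0.05 in edgeR, there were 5, 6 and 6 members in these 3 groups. With hepatocyte scaling 2, 2 and 1 members were called in them, and 2 in AL and 2 in CR-day-2h. With library totals 1, 2 and 1 were called in them, against 3 in AL. The members gained were Asl and Nags in CR-night-12h (-0.73 and -0.72 with hepatocyte scaling, -0.66 and -0.64 with library totals), Asl in CR-night-2h (-0.60 and -0.59) and Slc25a15 in CR-day-12h (-0.64 and -0.61), and with hepatocyte scaling also Asl in CR-day-12h (-0.60). Without the livers of letter A, Asl missed the thresholds in CR-day-2h (-0.44), and Asl (-0.65) and Slc25a15 (-0.70) were called in CR-day-12h. In CR-night-12h, Cps1 ran from 3050 to 6550 CPM (median 5170) at 6 months and from 2470 to 6450 CPM (median 4340) at 19 months, so that the ages overlapped over most of their range. The log2 fold changes of Cps1 with age were -0.49 ± 0.10 in CR-spread, -0.51 ± 0.10 in CR-day-12h, -0.28 ± 0.10 in CR-day-2h, -0.26 ± 0.10 in CR-night-12h and -0.39 ± 0.10 in CR-night-2h.

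Otc differed in direction. In CR-night-12h it ran from 248 to 357 CPM (median 301) in young and from 210 to 529 CPM (median 408) in old livers, and 21 of 24 old livers lay above the highest young one. In CR-night-2h 17 of 24 old livers did so, with 212 to 347 CPM (median 294) in young and 193 to 504 CPM (median 376) in old livers. Its log2 fold changes with age were 0.44 ± 0.07 in CR-day-2h, 0.41 ± 0.07 in CR-night-12h and 0.40 ± 0.07 in CR-night-2h, with adjusted p of 6.1e-08, 3.6e-07 and 2e-06 (edgeR), none reaching the fold of 1.5. In CR-spread and CR-day-12h they were 0.17 ± 0.07 and 0.11 ± 0.07 and did not pass the test (adjusted p 0.058 and 0.26, edgeR). Without the livers of letter B the value in CR-spread was 0.03. The sign of Otc was thus positive in all 5 CR groups, in 2 of them without passing the test, and negative in AL. These signs held under each of the 5 scalings.

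**Figure D2:**
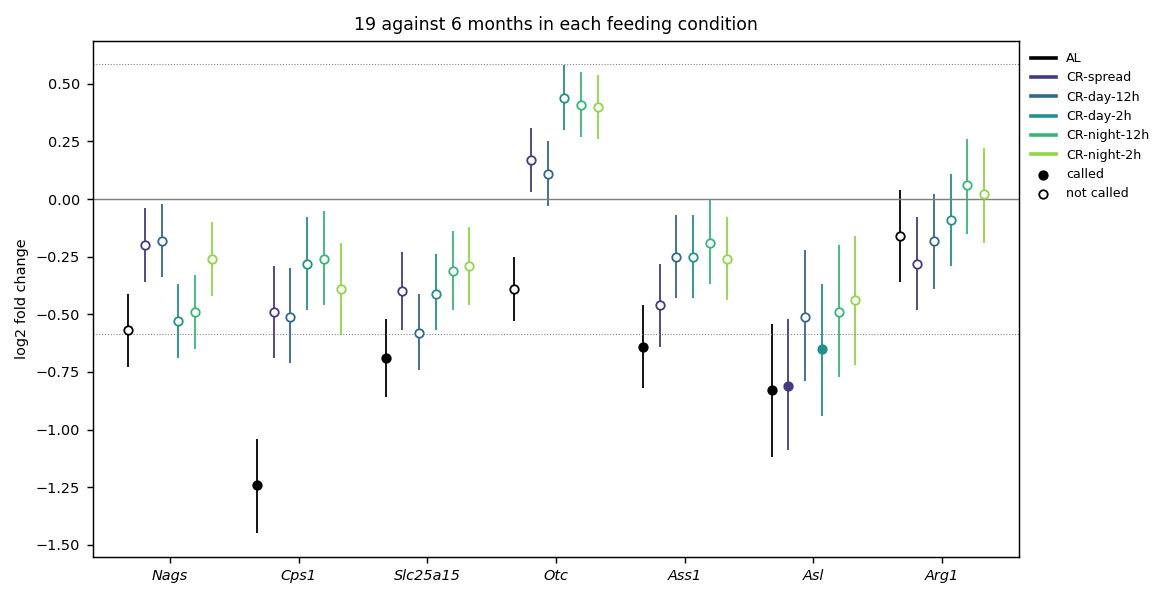
Log2 fold change (vertical axis) of each urea cycle gene between 19 and 6 months in the 6 feeding conditions (colours), TMM scaling, with 95% confidence intervals, 24 livers per group. Filled points were called, dotted lines mark a fold of 1.5. Cps1 stands at -1.24 in AL and between -0.51 and -0.26 under CR, and Otc is below 0 only in AL, under each of the 5 scalings. In CR-day-12h the interval of Otc includes 0.

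The difference between the age effects was tested directly, as the age effect under CR minus that under AL. It was called for Cps1 in each of the 5 CR groups, at 0.75, 0.74, 0.96, 0.99 and 0.85 in order (each ± 0.15), with adjusted p from 1.1e-08 to 2.9e-05 (edgeR). It was called for Otc in CR-night-12h (0.80 ± 0.10), CR-night-2h (0.79 ± 0.10) and CR-day-2h (0.83 ± 0.10), with adjusted p from 1.3e-12 to 1.2e-11 (edgeR). Otc in CR-spread (0.56 ± 0.10) and CR-day-12h (0.50 ± 0.10) passed the adjusted p and missed the fold. Ass1 also passed it and missed the fold in every CR group but CR-spread, at 0.38 to 0.45. So did Nags in CR-spread, CR-day-12h and CR-night-2h (0.37, 0.39 and 0.31) and Slc25a15 in CR-night-12h and CR-night-2h (0.38 and 0.40). With hepatocyte scaling these values for Ass1, Nags and Slc25a15 were 0.04 to 0.23. Asl and Arg1 did not pass the adjusted p in any CR group, with Asl at 0.02 to 0.39 and Arg1 at -0.12 to 0.22. The count of called members was 1, 1, 2, 2 and 2 of 7 in the 5 CR groups in order. Of all genes 4.06%, 3.12%, 4.77%, 3.88% and 5.18% were called in the same direction. These comparisons share the AL groups and are not independent. Without the livers of letter A the difference for Cps1 missed the fold in CR-day-12h (0.57) and in CR-night-2h (0.58), and Otc was called in CR-spread (0.65). Scaled to hepatocyte transcripts, Otc missed the fold in CR-night-12h (0.47) and CR-night-2h (0.52), as did Cps1 in CR-day-12h (0.57). Scaled to library totals, Otc missed it in the same 2 groups (0.57 and 0.58).

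At 6 months, none of the 7 members was called in any CR group against AL, by edgeR or by DESeq2. Members with an unadjusted p below 0.05 in edgeR numbered 4, 5, 4, 5 and 2 in the CR groups in order. Of all genes, 3.57%, 2.6%, 4.37%, 3.16% and 4.84% were called higher in these groups in turn. Otc ran from 331 to 632 CPM (median 405) in AL and from 191 to 417 CPM (median 285) in CR-day-2h, where 21 of 24 livers lay below the lowest AL liver. Its log2 fold change against AL was -0.29 ± 0.07 in CR-spread, -0.27 ± 0.07 in CR-day-12h, -0.53 ± 0.07 in CR-day-2h, -0.45 ± 0.07 in CR-night-12h and -0.53 ± 0.07 in CR-night-2h, with adjusted p of 0.0018 or below in each (edgeR). On the deposited RPKM it was called lower in all 5, at -0.62 to -0.79. Relative to the median of all genes on RPKM it stood at -0.59 to -0.36. Ass1 was on the other side, at 0.20 to 0.42, and passed the adjusted p in 4 of the 5 groups. The sign of Ass1 was kept under TMM, DESeq2 size factors and library totals, and turned on RPKM in CR-day-12h (-0.17) and CR-day-2h (-0.05) and with hepatocyte scaling in CR-day-12h, CR-day-2h and CR-night-2h (-0.01, -0.02 and -0.02). Relative to the median of all genes under the same scaling, Ass1 stood at 0.12 to 0.43 in the 5 groups under the 5 scalings.

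At 19 months, members were called higher in every CR group with TMM. Cps1 ran from 1210 to 4610 CPM (median 1820) in AL. It ran from 2130 to 6240 CPM (median 3740) in CR-spread, from 1550 to 5660 (median 3810) in CR-day-12h and from 2430 to 6280 (median 3810) in CR-day-2h. It ran from 2470 to 6450 CPM (median 4340) in CR-night-12h and from 2350 to 5240 (median 4190) in CR-night-2h. In 4 of the 5 CR groups all 24 livers lay above the AL median, and in CR-day-12h 23 did. Cps1 was called higher in all 5, at 0.88, 0.84, 0.91, 1.04 and 1.00 (each ± 0.10) in the same order, with adjusted p from 9.4e-18 to 2.9e-12 (edgeR).

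Ass1 was called higher in all 5 groups with TMM as well, and missed the fold in CR-spread and CR-day-2h (0.58 in both) with DESeq2 size factors. It ran from 1120 to 2370 CPM (median 1450) in AL and from 1320 to 4760 CPM (median 2780) in CR-night-12h, where 16 of 24 livers lay above the highest AL liver. Its log2 fold changes were 0.59, 0.64, 0.59, 0.83 and 0.69 (each ± 0.09) in the CR groups in order, with adjusted p from 9.4e-15 to 4.3e-08 (edgeR). Asl was called in CR-day-12h (0.61 ± 0.15), CR-night-12h (0.82 ± 0.15) and CR-night-2h (0.67 ± 0.15), with adjusted p of 3.3e-04, 6.8e-07 and 5.5e-05 (edgeR). In CR-night-12h Asl ran from 140 to 887 CPM (median 368), against 130 to 514 CPM (median 209) in AL, and 6 of 24 livers lay above the highest AL liver. Nags stood at 0.44 to 0.55, Slc25a15 at 0.33 to 0.45, Otc at 0.23 to 0.35 and Arg1 at 0.20 to 0.45, none of them called.

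Thus 2, 3, 2, 3 and 3 of 7 members were called higher in the CR groups in order, and none lower, against 2.18%, 2.62%, 3.1%, 3.57% and 3.51% of all genes called higher. In CR-night-2h 8.04% of all genes were called lower. The 5 comparisons share 1 AL group. These counts depended on the scaling. Scaled to library totals, Cps1 was called in all 5 groups (0.76 to 0.87). On RPKM it was called in 4 and stood at 0.54 in CR-day-2h. Scaled to the summed hepatocyte transcripts, a sum made up mostly of Alb and itself higher under CR, it stood at 0.41 to 0.50. No member was called there. Ass1 was called only in CR-night-12h (0.64) with library totals, and in no group on RPKM or with hepatocyte scaling.

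The scaling moved all genes together. In CR-night-2h against AL the median of all genes was 0.02 with TMM, -0.13 with library totals, -0.16 on RPKM and -0.59 with hepatocyte scaling, and the share of calls that were higher was 30.4%, 15.1%, 10.2% and 1.29%. With hepatocyte scaling Otc, Arg1 and Slc25a15 had negative signs in all 5 groups, and Nags in CR-night-12h and CR-night-2h. Relative to the median of all genes under the same scaling, Cps1 stood 0.97 to 1.00 higher in CR-night-2h under the 5 scalings, Ass1 0.59 to 0.67, Asl 0.51 to 0.65, Nags and Slc25a15 each 0.32 to 0.42, Arg1 0.16 to 0.25 and Otc 0.16 to 0.23. Without the livers of letter A, only Cps1 was called in CR-spread (0.84) and CR-night-2h (0.78). In CR-day-12h only Nags was called without them (0.61), and Cps1 (0.54), Ass1 (0.45) and Asl (0.33) missed the fold. Without those of letter B, 4 members were called in CR-spread and 1 in CR-day-2h.

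**Figure D3:**
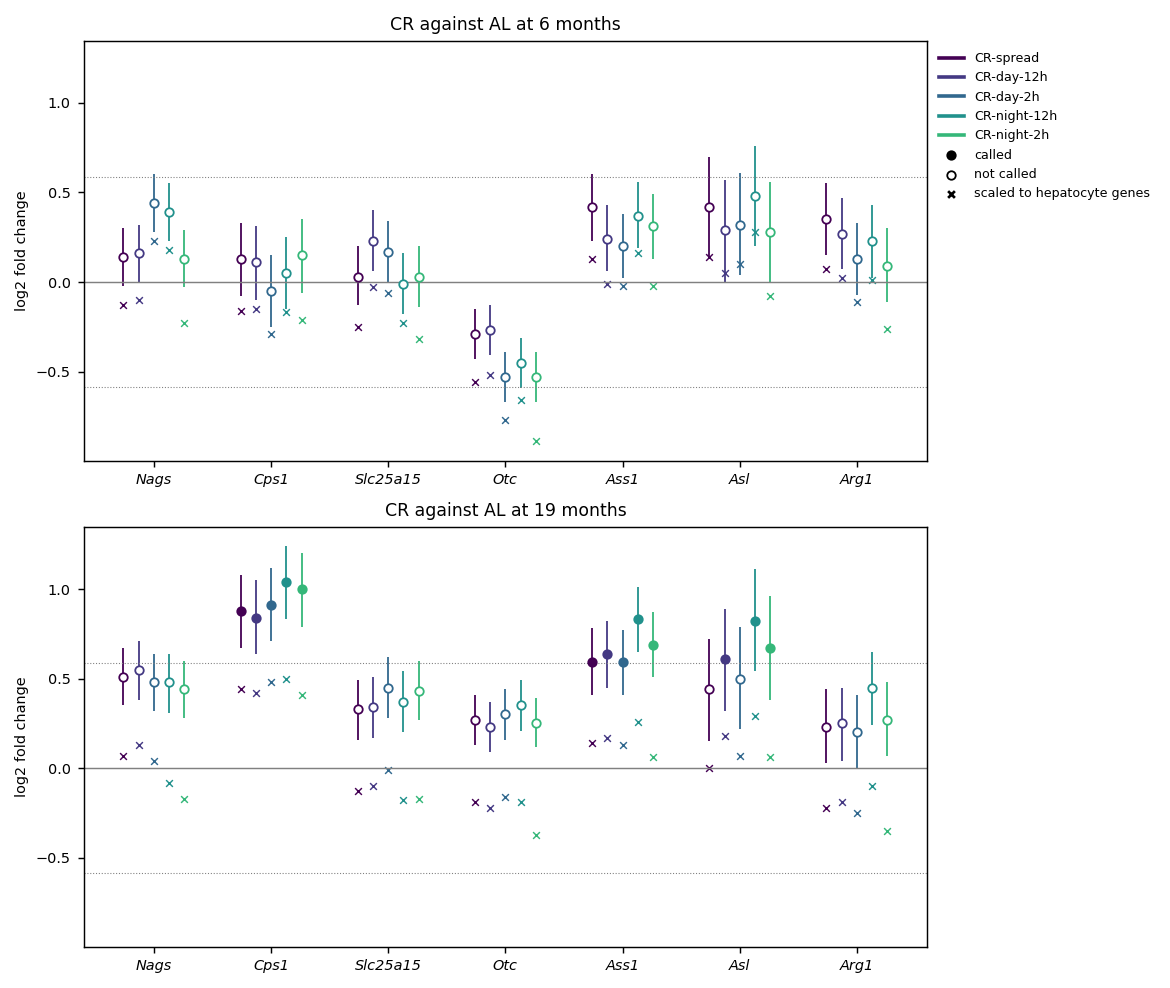
Log2 fold change (vertical axes) of each urea cycle gene in the 5 CR groups (colours) against AL at 6 months (upper) and 19 months (lower), with 95% confidence intervals, 24 livers per group. Circles use TMM scaling, filled where called, and crosses the same values scaled to 8 hepatocyte transcripts. Dotted lines mark a fold of 1.5. At 19 months Cps1 lies at 0.84 to 1.04 with TMM and 0.41 to 0.50 with hepatocyte scaling, where Otc, Arg1 and Slc25a15 lie below 0.

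Cell markers moved in this comparison too. In CR-night-2h at 19 months, 5 of 6 Kupffer cell and macrophage markers, both T cell markers, the 3 B cell markers and 2 of 5 stellate cell markers were called lower than in AL. The T and B cell markers were low here too, with means of 0.703 to 1.06 CPM in CR-night-2h. With TMM 4 of the 6 periportal markers were called higher and none lower, and 3 of the 8 general hepatocyte markers were called higher. The periportal markers Cyp2f2 and Hsd17b13 had lower means than in AL (438 against 583 and 526 against 715 CPM). Periportal markers called higher and lower numbered 2 and 1 with library totals, 1 and 2 on RPKM, and 0 and 2 with hepatocyte scaling. No general hepatocyte marker was called higher in these. Among the 8 pericentral markers 1 was called higher and 1 lower with TMM. The summed Kupffer cell and macrophage markers had a median of 69.9 CPM (range 39.5 to 272), against 187 CPM (79.3 to 491) in AL. Their part in the higher urea cycle transcripts was not tested.

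The feeding schedule within CR was compared next. Between night and day feeding no member was called, by edgeR or DESeq2, in either the 2-h or the 12-h groups at either age. Over the 7 members the log2 fold changes ran from -0.32 to 0.20 (2-h groups) and from -0.24 to 0.23 (12-h groups) at 6 months. At 19 months they ran from -0.04 to 0.17 and from -0.07 to 0.21. Members with an unadjusted p below 0.05 numbered 1, 3, 0 and 1 in these 4 comparisons, where 0.638%, 2.02%, 0.393% and 1.34% of all genes were called in either direction. Nags at 6 months had the lowest value, with 24.7 to 52.4 CPM (median 37.8) in CR-night-2h and 26.5 to 66.7 CPM (median 47.7) in CR-day-2h. Its difference of -0.32 ± 0.08 (95% interval -0.48 to -0.15) passed the adjusted p (0.014, edgeR) and missed the fold. For Cps1 the 95% intervals ran from -0.01 to 0.40 (2-h) and -0.26 to 0.15 (12-h) at 6 months, and from -0.12 to 0.29 and -0.01 to 0.40 at 19 months.

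The 4 CR groups with a daily fast were also compared, as a mean, with CR-spread. No member was called at either age, by edgeR or DESeq2, and 0.842% (6 months) and 0.769% (19 months) of all genes were. The members ran from -0.17 to 0.14 at 6 months, with 3 at an unadjusted p below 0.05, and from -0.02 to 0.21 at 19 months, with none. For Cps1 the 95% interval was -0.22 to 0.10 at 6 months and -0.09 to 0.23 at 19 months.

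Sampling over 2 days allowed a 24-h cosine curve to be fitted in each group, with 9949 to 11268 genes tested. A gene was called cycling at an adjusted p below 0.05 and a fitted peak-to-trough fold of at least 1.2. Asl cycled in 9 of 12 groups, Arg1 in 7, Cps1 and Slc25a15 in 5 each, Ass1 and Nags in 2 each, and Otc in none. The 3 groups in which Asl did not cycle were CR-day-12h at 6 months and CR-day-2h at both ages. Cps1 was called in every group at 6 months but CR-night-2h, and in none at 19 months. The difference in its rhythm between ages did not pass the test where it was run (adjusted p 0.68 in AL, 1 in CR-night-2h and 0.32 in CR-day-2h, edgeR).

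At 6 months, 3 of 7 members cycled in AL (38.1% of all genes tested), 5 in CR-spread (22.6%), 2 in CR-day-12h (46.9%), 4 in CR-day-2h (31.7%), 5 in CR-night-12h (42.3%) and 1 in CR-night-2h (33.4%). At 19 months, 2 cycled in AL (36.6%), 1 in CR-spread (16%), 1 in CR-day-12h (25.9%), 1 in CR-day-2h (21.9%), 2 in CR-night-12h (29.5%) and 3 in CR-night-2h (33.2%). The share of members that cycled lay above that of all genes in 5 groups and below it in 7. Without the livers of letter A, no member was called cycling in 6 of the 12 groups.

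**Figure D4:**
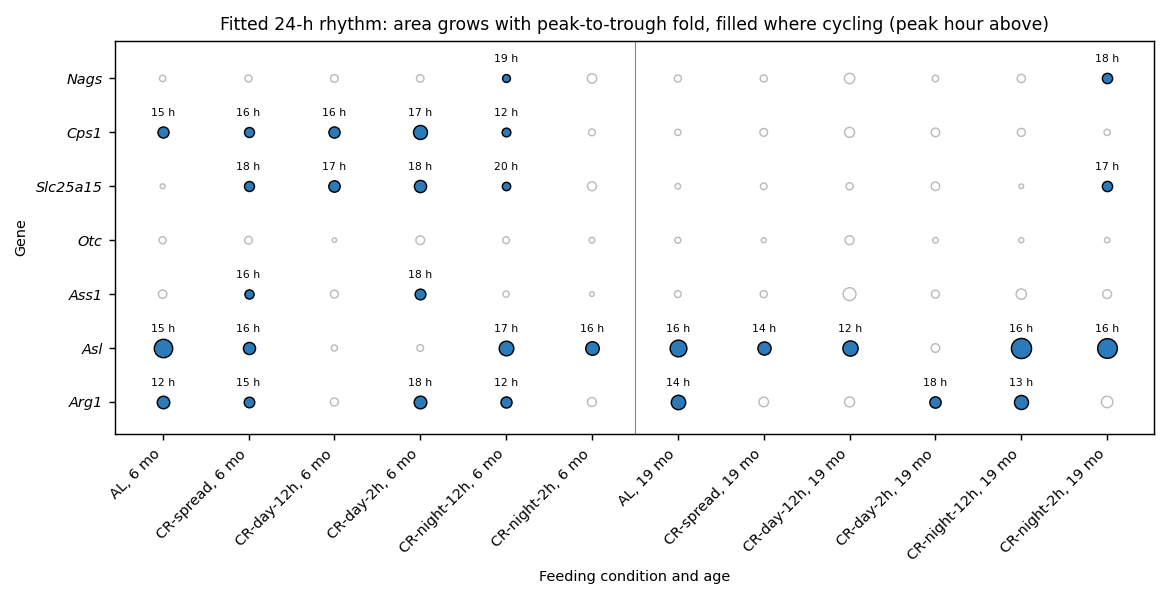
Fitted 24-h rhythm of each urea cycle gene (rows) in the 12 groups (columns). The area of a circle grows with the peak-to-trough fold, and filled circles were called cycling, with the fitted peak hour above. Asl is filled in 9 of 12 groups and Otc in none.

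In AL at 6 months, Asl was lowest at hour 4 of the day (214 to 287 CPM in 4 livers) and highest at hour 16 (486 to 797 CPM). Its fitted fold was 2.66 with a peak at 15.1 h (adjusted p 8.2e-08, edgeR). At 19 months it ran from 131 to 154 CPM at hour 4 and from 304 to 514 CPM at hour 16, so that the times did not overlap at either age, with a fold of 2.36 and a peak at 16.3 h (adjusted p 1.7e-05, edgeR). The difference in rhythm between ages did not pass the test (adjusted p 0.79, edgeR).

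Arg1 in AL ran from 644 to 735 CPM at hour 0 and from 1150 to 1290 CPM at hour 12 at 6 months, with a fold of 1.73 and a peak at 12.4 h (adjusted p 3e-07, edgeR). At 19 months the fold was 1.99 and the peak at 13.9 h (adjusted p 3.2e-05, edgeR). Cps1 in AL at 6 months ran from 3270 to 4830 CPM at hour 0 and from 5120 to 6960 CPM at hour 16, with a fold of 1.56 and a peak at 15.0 h (adjusted p 5.7e-04, edgeR). At 19 months its fitted fold was 1.13 (adjusted p 0.86, edgeR), and the difference between ages was not called (adjusted p 0.68, edgeR).

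Between CR-night-2h and CR-day-2h the rhythm differed for Asl and Arg1 at both ages. Asl at 19 months ran in CR-night-2h from 90.4 to 198 CPM at hour 4 and from 404 to 637 CPM at hour 12, with a fold of 2.91 and a peak at 15.8 h. In CR-day-2h it ran from 204 to 348 CPM at hour 4 and from 149 to 373 CPM at hour 12, with a fitted fold of 1.31 that was not called. The test of the difference gave an adjusted p of 1.1e-05 at 19 months and 0.037 at 6 months (edgeR). At 6 months the folds of Asl were 1.87 in CR-night-2h and 1.16 in CR-day-2h.

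Arg1 in CR-day-2h peaked at 18.0 h at 6 months and 17.6 h at 19 months, with folds of 1.75 and 1.59. In CR-night-2h its fitted peaks were at 9.4 h and 13.5 h, with folds of 1.34 and 1.60 that were not called. The difference passed the test at 6 months (adjusted p 1.2e-04, edgeR) and at 19 months (adjusted p 0.021, edgeR). The other 5 members did not pass it at either age. Thus 2 of 7 members differed at each age, where 37.7% (6 months) and 46.7% (19 months) of all genes did. Without letter A 1 of 7 was called at each age. Between ages no member differed in AL, CR-night-2h or CR-day-2h, with 0.00818%, 0.00818% and 5.81% of all genes called. In these 3 comparisons Arg1 in CR-night-2h had the only member p below 0.05 before adjustment (p 0.031, edgeR).

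**Figure D5:**
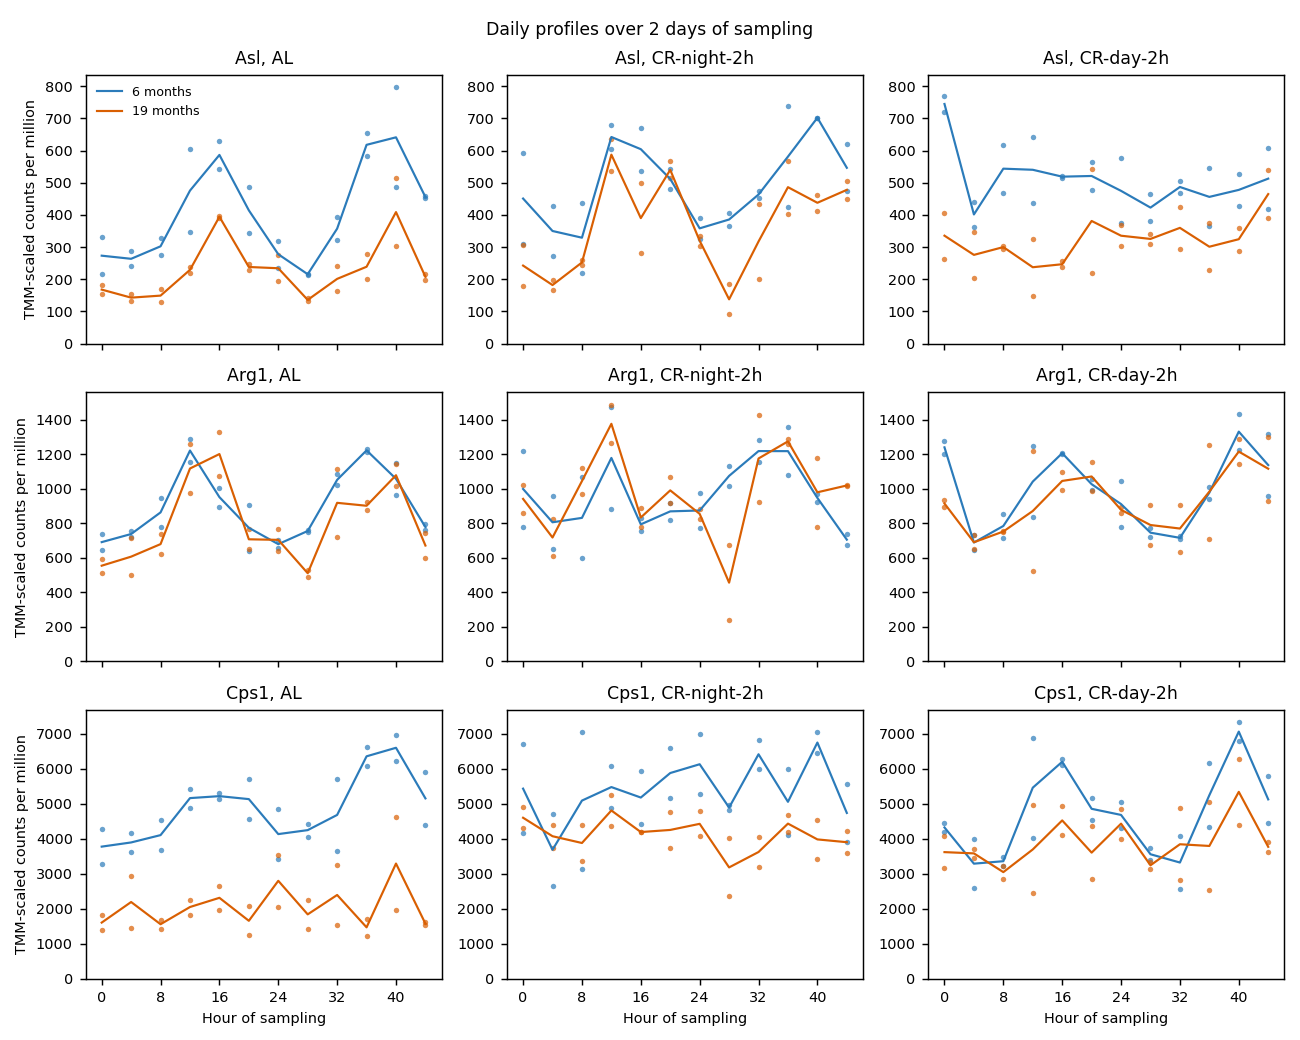
TMM-scaled CPM (vertical axes, from 0) of Asl, Arg1 and Cps1 by hour of sampling (horizontal axes, hours 0 to 44) in AL, CR-night-2h and CR-day-2h at 6 and 19 months (colours). Points are single livers and lines join the means of 2 livers. Asl has fitted peak-to-trough folds of 2.66 and 2.36 in AL, and 1.16 and 1.31 in CR-day-2h.

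The members differed in how closely they followed each other from liver to liver. Over the 288 libraries Pearson's r between log2 CPM ran from -0.14 (Otc and Nags) to 0.81 (Ass1 and Asl). Otc stood at 0.08 with Asl, 0.14 with Slc25a15 and 0.18 with Ass1, and at most at 0.36 (with Arg1). Over the 288 libraries, after removing group means, Pearson's r between log2 CPM of pairs of members ran from 0.02 (Otc and Nags) to 0.73 (Ass1 and Asl), with a median of 0.48. These libraries share depth, time of day and cell makeup across genes, and pairs of other genes were not compared, so the values are a description.

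The genes most like the mean of the 7 standardised members over 288 libraries, by Pearson's r, were Ahcy (0.86), Gls2 (0.84), Aass (0.84), Hpd (0.84), Gnmt (0.82), Ivd (0.81), Aldh1l1 (0.81) and Slc43a1 (0.81). AHCY hydrolyses S-adenosylhomocysteine, GLS2 is the glutaminase of the adult liver and releases ammonia, AASS starts lysine breakdown, HPD acts in tyrosine breakdown and IVD in leucine breakdown. GNMT methylates glycine, ALDH1L1 is a folate enzyme and SLC43A1 carries large neutral amino acids. Since they were chosen for following the members over these same libraries, their differences between groups are a description only. In old against young AL livers their log2 fold changes ran from -2.14 (Slc43a1) to -0.51 (Aass).

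Around the cycle, 15 of 16 genes of nitrogen supply and transport passed the filter on low counts. With age in AL 4 of them fell and none rose (median -0.36), against 4.47% of all genes called lower and 10.8% higher. They included Gls2 (-0.87 ± 0.11) and the glutamine transporter gene Slc38a3 (-1.09 ± 0.16). Slc25a13, the aspartate-glutamate carrier gene, stood at -0.36 ± 0.08 and the amino acid transporter gene Slc38a4 at -0.50 ± 0.11, both under the fold. In CR-night-2h against AL at 19 months 3 were called higher (median 0.19), against 3.51% of all genes. These were Gls2 (0.65 ± 0.11), the neutral amino acid transporter gene Slc38a2 (0.68 ± 0.15) and the aspartate aminotransferase gene Got1 (0.94 ± 0.23). Slc25a13 stood at 0.33 ± 0.08. With library totals 1 was called higher, and on RPKM 0 of 14 tested (median -0.04). With hepatocyte scaling, under which the median of all genes was -0.59, none was called higher and 5 were called lower. The median of this list lay 0.19 above that of all genes there.

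Of 17 genes of arginine and ornithine use 13 passed the filter. Arg2, the second arginase, and Slc25a2, the paralog of Slc25a15, were among those that did not. With age in AL 2 were called higher and 1 lower (median -0.25), counts near the shares of all genes (10.8% and 4.47%). Ddah1, which degrades methylated arginines (0.65 ± 0.10), and Aldh18a1, of proline and ornithine synthesis (0.79 ± 0.26), rose, and Slc25a29, a mitochondrial carrier of basic amino acids, fell by 0.79 ± 0.21. Aldh18a1 and Slc25a29 had low levels, with means of 1.22 and 1.23 CPM in young and 2.11 and 0.713 CPM in old AL livers. Agmat (-0.50 ± 0.08) and Sat1 (0.40 ± 0.08), of agmatine and polyamine metabolism, missed the fold. In CR-night-2h against AL at 19 months Slc25a29 was called higher (0.95 ± 0.21) and Aldh18a1 lower (-0.74 ± 0.27), again near the shares of all genes (3.51% and 8.04%). Agmat (0.24 ± 0.08) and the ornithine aminotransferase gene Oat (-0.33 ± 0.14) were not called. With hepatocyte scaling none was called higher and 6 lower, where the median of all genes was -0.59 and that of this list lay 0.1 above it.

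All 28 genes of amino acid breakdown passed the filter. With age in AL 14 of them fell and none rose (median -0.56; all genes 4.47% and 10.8%), and 11 to 14 were called lower under the 5 scalings. Ftcd, of histidine and folate metabolism, fell by 0.92 ± 0.09, Gnmt by 0.95 ± 0.11 and Hgd, of tyrosine breakdown, by 0.59 ± 0.07, while Aldh4a1, of proline breakdown, stood at -0.53 ± 0.07. In CR-night-2h against AL at 19 months 6 were called higher and none lower (median 0.35; all genes 3.51% and 8.04%). They included Hal, the histidine ammonia-lyase gene (1.12 ± 0.17), Agxt (0.89 ± 0.16), Hpd (0.85 ± 0.11) and Cth, of cysteine synthesis (0.70 ± 0.12). With library totals 5 were called higher and 1 lower, and on RPKM 3 higher and 1 lower (median 0.07). With hepatocyte scaling none was called higher and 3 lower, where the median of all genes was -0.59 and that of this list lay 0.31 above it.

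Of 16 regulators, all passing the filter, 1 fell with age in AL and none rose (median -0.20), a count near the 4.47% of all genes called lower. Klf15, a transcription factor that promotes amino acid breakdown, fell by 0.59 ± 0.14. The glucagon receptor gene Gcgr (-0.58 ± 0.08), the glucocorticoid receptor gene Nr3c1 (-0.33 ± 0.06) and Foxa2 (-0.42 ± 0.12), a liver transcription factor, missed the fold. With DESeq2 size factors no regulator was called, and with library totals or hepatocyte scaling 1 was called higher and none lower. In CR-night-2h against AL at 19 months no regulator was called with TMM (median 0.14), with Hnf4a at 0.35 ± 0.07, Gcgr at 0.33 ± 0.08, Klf15 at 0.55 ± 0.14 and Foxa2 at 0.36 ± 0.12. Each of these 4 passed the adjusted p. With hepatocyte scaling 4 regulators were called lower, where the median of all genes was -0.59 and that of the regulators lay 0.1 above it.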

How the data were processed

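Polyadenylated RNA of 288 mouse livers was sequenced. The authors trimmed reads with cutadapt, checked them with FastQC, aligned them with STAR and counted reads per gene with featureCounts, while tool versions, genome build and annotation were not given in the sources used here. The deposited tables hold raw counts per gene, and a second set holds the authors' RPKM. Groups came from the sample labels, and all 288 libraries were used. The 2 livers per time point are separate mice. In the fits of group means time of day was left in the spread. Their p-values thus measure the spread over animals and times of day together, estimated over the 12 groups jointly.

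Counts were tested in edgeR 4.0.16 (R 4.3.3) with quasi-likelihood F tests on 12 group means, TMM scaling and the package's filter on low counts, which kept 12228 of 21869 genes. P-values were adjusted over all genes kept. Genes were called at an adjusted p below 0.05 and a fold of at least 1.5. Time of day was not a term in these fits, since every group was sampled at the same 12 time points. Rhythms were fitted per group with a 24-h cosine and sine, and differences in rhythm in a joint fit at an adjusted p below 0.05 (2 contrasts together). CPM on a log2 scale used a prior count of 2. The code was tested on simulated data.

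The alternatives were DESeq2 1.42.0, its size factors in edgeR, no filter on low counts, leaving out each letter, a replicate block, each sampling day alone, scaling to 8 hepatocyte transcripts, and, for rhythms, another waveform or a fit over all libraries. Scaling to library totals, and the deposited RPKM as log2(RPKM + 1) in limma 3.58.1, were chosen after seeing the data. The members and gene lists were chosen with earlier results of these data known. Named were all 7 members, up to 4 genes per list with the smallest p in each of 2 comparisons (old against young AL, and CR-night-2h against AL at 19 months), the 8 genes most correlated with the members, and the paralogs Arg2 and Slc25a2. Gene identifiers were compared with GENCODE M21, where 83.7% of the 21869 had the same version.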

Additional observations from a re-analysis of the deposited data

Results flagged for a closer look

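The difference in age effect between CR and AL was called in a direct test for 2 of the 7 members. Ass1, Nags and Slc25a15 passed the adjusted p in some CR groups and missed the fold. For Cps1 the age effect under CR exceeded that under AL by 0.75 (CR-spread), 0.99 (CR-night-12h), 0.85 (CR-night-2h), 0.74 (CR-day-12h) and 0.96 (CR-day-2h) on the log2 scale. For Otc it did so by 0.80 (CR-night-12h), 0.79 (CR-night-2h) and 0.83 (CR-day-2h). Of all genes 3.12% to 5.18% were called in the same direction. With hepatocyte scaling Otc missed the fold in CR-night-12h (0.47) and CR-night-2h (0.52), and Cps1 in CR-day-12h (0.57). With library totals Otc missed it in the same pair of night groups (0.57 and 0.58). Without letter A, Cps1 missed the fold in CR-day-12h (0.57) and CR-night-2h (0.58). The 5 comparisons share both AL groups.

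The daily rhythm differed between CR-night-2h and CR-day-2h by a direct test for Asl, with an adjusted p of 0.037 at 6 months and 1.1e-05 at 19 months (edgeR). For Arg1 the adjusted p was 1.2e-04 at 6 months and 0.021 at 19 months (edgeR). These are 2 of 7 members, a smaller share than the 37.7% (6 months) and 46.7% (19 months) of all genes that differed, and 1 of 7 was called at each age without letter A.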

How the results depend on the processing

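Calls on age under AL, and the interaction for Cps1 in CR-spread, CR-day-2h and CR-night-12h, kept their direction in every alternative run. The cause of each change below was not tested.

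With DESeq2, and with its size factors in edgeR, the count of members called against AL at 19 months was 1 in CR-spread and 1 in CR-day-2h, and with the size factors 2 members cycled in CR-spread at 19 months. Without the filter on low counts, Nags was called with age in AL (-0.59). With 6 times of day as a factor, 0 members cycled in CR-spread, 0 in CR-day-12h, 0 in CR-day-2h and 5 in CR-night-2h, all at 19 months. In 1 fit over 288 libraries, 3 cycled in CR-spread and 2 in CR-night-12h at 6 months, and 5 in CR-day-12h at 19 months.

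With hours 0 to 20 alone, 2 members were called with age in CR-day-2h and 2 in CR-day-2h against AL at 6 months. With hours 24 to 44 alone, 1 was called with age in CR-day-12h, 0 in CR-day-2h and 1 in CR-night-12h, and Arg1 stood at -0.07 with age in CR-night-2h.

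With hepatocyte scaling, the counts called with age were 2 in AL, 2 in CR-day-12h, 2 in CR-day-2h, 2 in CR-night-12h and 1 in CR-night-2h, and Arg1 stood at -0.15 (CR-night-12h) and -0.14 (CR-night-2h). Against AL at 6 months 1 was called in each of CR-night-2h, CR-night-12h and CR-day-2h, and Ass1 stood at -0.01, -0.02 and -0.02 in CR-day-12h, CR-day-2h and CR-night-2h. Against AL at 19 months 0 were called in any CR group. In the 5 CR groups, ordered as in the text, Otc stood at -0.19, -0.22, -0.16, -0.19 and -0.37, Arg1 at -0.22, -0.19, -0.25, -0.10 and -0.35, and Slc25a15 at -0.13, -0.10, -0.01, -0.18 and -0.17. Nags stood at -0.08 in CR-night-12h and -0.17 in CR-night-2h. The interaction was called for 0 members in CR-day-12h, 1 in CR-night-12h and 1 in CR-night-2h.

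With library totals, the counts called with age were 1 in CR-day-12h, 2 in CR-day-2h, 2 in CR-night-12h and 1 in CR-night-2h, and Arg1 stood at -0.11 (CR-night-12h) and -0.12 (CR-night-2h). Against AL at 19 months 1 was called in each CR group but CR-night-12h, and the interaction was called for 1 in CR-night-12h and 1 in CR-night-2h. On the deposited RPKM, 2 were called with age in CR-day-2h. Arg1 and Nags each stood at 0.01 with age in CR-day-12h, and Arg1 at -0.03 in CR-night-2h. Against AL at 6 months 1 was called in each CR group, and Ass1 stood at -0.17 (CR-day-12h) and -0.05 (CR-day-2h). At 19 months 1 was called in CR-spread, CR-day-12h, CR-night-12h and CR-night-2h and 0 in CR-day-2h. Otc stood at -0.03 and -0.10, and Arg1 at -0.05 and -0.19, in CR-spread and CR-day-2h. The interaction was called for 2 members in CR-spread and 2 in CR-day-12h.

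Leaving out letter A or B gave these ranges. With age, 1 to 2 members were called in CR-spread, 0 to 2 in CR-day-12h and 0 to 2 in CR-day-2h. Nags stood at -0.48 to 0.11 in CR-spread, and Arg1 at -0.21 to 0.03 in CR-day-2h, -0.04 to 0.16 in CR-night-12h and -0.10 to 0.15 in CR-night-2h. Against AL, 0 to 1 were called in CR-day-2h at 6 months, and at 19 months 1 to 4 in CR-spread, 1 to 3 in CR-day-12h, 1 to 2 in CR-day-2h and 1 to 3 in CR-night-2h, with Otc at -0.02 to 0.47 in CR-day-12h. The interaction was called for 1 to 2 in CR-spread, 0 to 1 in CR-day-12h and 1 to 2 in CR-night-2h. At 6 months 1 to 5 members cycled in CR-spread, 0 to 1 in CR-day-12h, 1 to 3 in CR-day-2h, 1 to 2 in CR-night-12h and 0 to 1 in CR-night-2h. At 19 months 0 cycled in CR-spread and CR-day-12h under either, 0 to 1 in CR-day-2h and 0 to 1 in CR-night-2h. The rhythm difference was called for 0 to 1 between ages in CR-day-2h, and for 1 to 2 between night and day feeding at each age.

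The letters did not pair the mice: deviations of same-lettered livers correlated at a median of 0.08 (-0.07 to 0.17, over 0.1 at 5 of 12 time points) between ages in AL and at -0.06 (-0.19 to 0.16, 1 of 12) in CR-night-2h. A replicate block of time point and letter left the counts at 4 for age in AL and within 1.5 times elsewhere, brought CR-day-2h against AL at 19 months to 3, and put Arg1 at -0.00 with age in CR-night-2h. With the letter as a replicate block, 2 members differed in rhythm between night and day feeding at each age.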
